A study of Mus musculus with 6 samples.

Results

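The acetylcholine receptor and the proteins that cluster it beneath a motor nerve terminal were examined through 10 genes in the table of gene counts, out of the 46078 genes it lists. The members were taken by gene name: *Chrna1*, *Chrnb1*, *Chrnd*, *Chrng* and *Chrne* for the receptor subunits, *Agrn*, *Lrp4*, *Musk* and *Dok7* for the signal that induces clustering, and *Rapsn* for the scaffold. The cells were C2C12, mouse myoblasts grown as a permanent line, which fuse into multinucleated myotubes once serum is lowered. RNA was sequenced from 3 *Hnrnpa2b1* KO libraries (KO1 to KO3) and 3 WT libraries (WT1 to WT3), each after 48 hr of differentiation on lowered serum with an insulin, transferrin and selenium supplement. The KO was made with CRISPR-Cas9 and a single-guide RNA against *Hnrnpa2b1*, and the methods describe clones of both genotypes isolated after puromycin selection without giving the clone behind each library. The p-values therefore measure the spread between these libraries.

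The muscle acetylcholine receptor is a cation channel of 5 subunits that opens when acetylcholine released by the motor nerve binds. Fetal and cultured muscle assembles it from alpha 1, beta 1, delta and gamma subunits, and the gamma subunit is replaced by epsilon as the synapse matures. Agrin from the nerve, and in a less active splice form from muscle, binds LRP4 on the muscle surface. LRP4 then activates the receptor tyrosine kinase MuSK, the adaptor DOK7 sustains that activity, and rapsyn gathers the receptors into clusters.

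The counted reads of a library numbered between 33605258 and 40558740, so that counting error was small for every member other than *Chrne*. Counts were scaled to CPM (counts relative to those in all tested genes of the library, adjusted by the trimmed mean of M-values), and TPM, which also correct for transcript length, served as a second measure. Myotube markers were present in both genotypes, as the label of differentiated C2C12 cells asks. *Myog*, a myogenic transcription factor, had 513 to 696 TPM in KO and 526 to 673 TPM in WT. All 16 myotube markers examined passed the filter on low counts. Of these, 6 had a positive log2 fold change of KO over WT and 10 a negative one. Their median was −0.64, so *Myog*, near 0 at 0.06, does not stand for the list. No undifferentiated library was compared, so the extent of differentiation was not measured here. The paper did assess it, by staining and a fusion index after the same time on lowered serum. WT myoblasts had mostly become multinucleated myotubes, whereas KO myoblasts failed to make large ones. From the RNA, the paper also inferred that KO cells were slow to reach a later myogenic state. Genotype and stage of differentiation thus go together, and the part of stage in the members' values was not tested. The RNA of the targeted gene itself, *Hnrnpa2b1*, had 159, 195 and 249 CPM in KO and 225, 229 and 252 CPM in WT, so the genotypes overlapped (edgeR's adjusted p = 0.381 for a log2 fold change of −0.23 with a standard error of 0.18). The labels thus could not be checked by RNA, and the study assessed loss of the protein by other assays.

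Subunit genes are known for E-boxes (CANNTG, the sites of myogenic bHLH factors) and, at synaptic nuclei, for the N-box (CCGGAA, bound by GABP) near their start sites. Start sites with their upstream bases were found in the RefSeq table (GRCm38.p6) for 7 of the 10 members: *Chrna1*, *Chrnb1*, *Chrng*, *Chrne*, *Musk*, *Dok7* and *Agrn*. The RefSeq start of *Chrng* lies inside the interval of the counted gene, so its printed stretch does too. The stretch from −200 to −31 relative to the start is shown for the fetal and adult subunit genes, whose levels lay far apart, and for *Chrna1* and *Musk*, with E-boxes and N-boxes in capitals, each on the strand of its gene (chr2:73580369-73580538 minus, chr1:87205611-87205780 plus, chr11:70619225-70619394 minus and chr4:58285762-58285931 plus, in the order printed).
Chrna1: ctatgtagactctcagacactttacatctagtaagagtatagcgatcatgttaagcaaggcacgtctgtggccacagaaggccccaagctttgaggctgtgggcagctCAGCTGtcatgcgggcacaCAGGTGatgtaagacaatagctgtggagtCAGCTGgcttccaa
Chrng: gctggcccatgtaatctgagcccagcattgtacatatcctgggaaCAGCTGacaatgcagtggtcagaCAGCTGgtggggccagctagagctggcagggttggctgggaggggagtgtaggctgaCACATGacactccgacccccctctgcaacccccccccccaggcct
Chrne: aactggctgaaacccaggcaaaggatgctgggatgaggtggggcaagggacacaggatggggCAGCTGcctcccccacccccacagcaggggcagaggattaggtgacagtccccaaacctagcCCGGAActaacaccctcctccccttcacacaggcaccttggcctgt
Musk: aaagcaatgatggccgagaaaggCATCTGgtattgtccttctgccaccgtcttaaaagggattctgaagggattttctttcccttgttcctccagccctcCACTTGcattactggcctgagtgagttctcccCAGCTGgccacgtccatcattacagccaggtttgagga

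Both strands of the 250 bases before each start were searched. *Chrng* held 3 E-boxes, of which 2 read CAGCTG, beginning at −155 and −132 from the start. *Chrna1* also held 3, with CAGCTG at −92 and −44, whereas *Chrne* held 1 CAGCTG at −138 and 1 N-box, CCGGAA, from −76 to −71. *Musk* and *Chrnb1* held 3 E-boxes each, and no other member's window held CCGGAA. Over all 32851 windows of this length in the table, 66.2% held CANNTG, 13% CAGCTG (a form of CANNTG) and 12% CCGGAA, so an E-box is common at this length. These matches describe letters and were not tied to the RNA levels by any test.

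KO cells carried RNA of the receptor subunits at levels that overlapped those of WT, and 1 member, *Lrp4*, rose 2.04-fold. Of the 9 members with enough counts to be tested in edgeR, 1 was higher in KO and 0 were lower at an adjusted p under 0.05, against 22.7% of all 14828 tested genes called in either direction, 12.1% called higher and 10.6% called lower. Those 1796 higher and 1565 lower genes became 2295 and 1174 when counts were scaled by library totals alone, and 1004 and 1390 on TPM. The same member was the only one of the 9 whose KO and WT libraries did not overlap in CPM, against 44.3% of all tested genes. On TPM with limma it was again 1 of 9, against 20.5% of 11691 genes. The median of KO over WT on the log2 scale was 0.04 over the 9 members and 0.03 over all tested genes. *Chrne* did not pass the filter and is described by its counts.

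**Figure D1:**
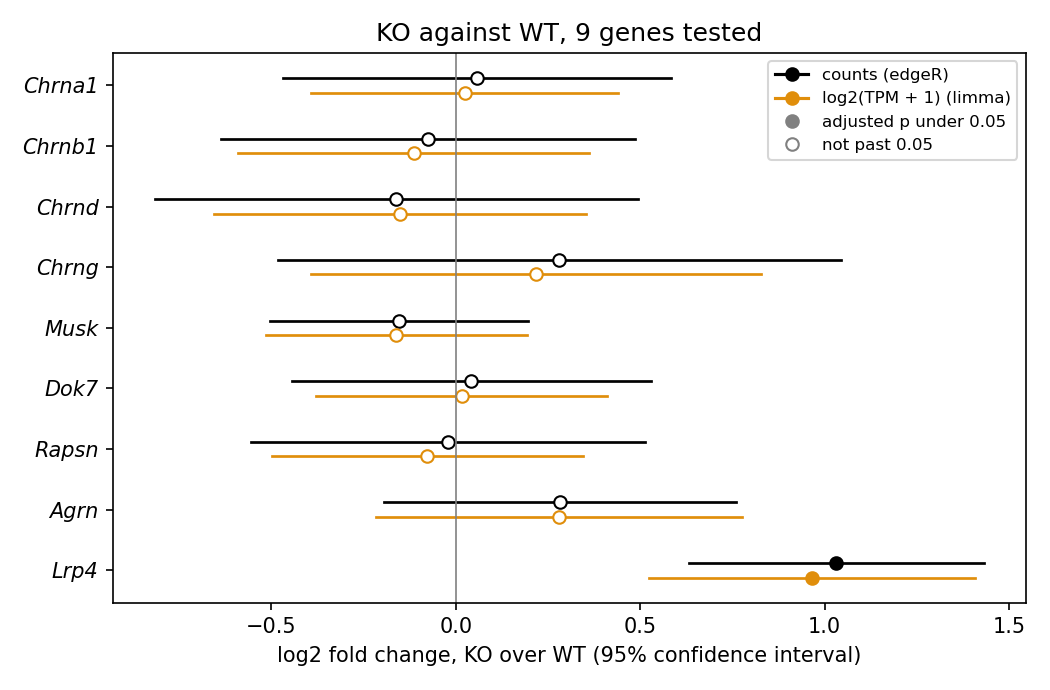
Log2 fold change of KO over WT for the 9 tested genes, from counts (edgeR, black) and from log2(TPM + 1) (limma, orange). Lines are 95% confidence intervals and filled points passed an adjusted p of 0.05, which *Lrp4* alone did, at 1.03 on counts and 0.97 on TPM.

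*Chrna1* (ENSMUSG00000027107, chr2:73563215-73580338, GRCm38) encodes the alpha 1 subunit, which forms the main part of the acetylcholine-binding site. It had 1486, 950.3 and 971 CPM in KO1 to KO3 and 969.6, 1101 and 1204 CPM in WT1 to WT3. KO1 was the highest of the 6 libraries and KO2 the lowest, so the WT libraries lay inside the KO range. The means, 1136 ± 303 for KO and 1092 ± 118 for WT (SD, n = 3), gave a log2 fold change of 0.06 (95% confidence interval −0.47 to 0.58, adjusted p = 0.873 in edgeR's quasi-likelihood test).

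*Chrnb1* (ENSMUSG00000041189, chr11:69784036-69795943) encodes the beta 1 subunit, whose phosphorylation follows MuSK activation. Its CPM were 257, 139 and 159 in KO and 194, 165.5 and 226 in WT. KO1 was again highest and the other KO libraries lay below all 3 WT libraries. The log2 fold change was −0.08 (95% confidence interval −0.64 to 0.49, adjusted p = 0.842).

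*Chrnd* (ENSMUSG00000026251, chr1:87190607-87200070) encodes the delta subunit and lies 4.59 kb before *Chrng* on the same strand. It had 230.4, 145 and 105 CPM in KO and 172, 149 and 217 CPM in WT, with the same order of KO1 above and KO2 and KO3 below every WT library. The log2 fold change was −0.16 (95% confidence interval −0.82 to 0.49, adjusted p = 0.704).

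*Chrng* (ENSMUSG00000026253, chr1:87204657-87212694) encodes the gamma subunit of the fetal receptor. It had 693, 317 and 325 CPM in KO and 349, 292 and 458 CPM in WT. KO1 stood well above the other 5 libraries, while KO2 and KO3 lay within the WT range. The means of 445 ± 215 (SD, n = 3) and 366 ± 84.3 (SD, n = 3) gave a log2 fold change of 0.28 (95% confidence interval −0.48 to 1.04, adjusted p = 0.562). Without KO1 the log2 fold changes of *Chrna1* and *Chrng* turned to −0.19 and −0.20, and those of *Chrnb1* and *Chrnd* became −0.39 and −0.52, with adjusted p from 0.0912 to 0.500.

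*Chrne* (ENSMUSG00000014609, chr11:70614883-70619216) encodes the epsilon subunit of the adult receptor. It had 9, 2 and 5 counts in KO and 7, 2 and 12 counts in WT, and KO2 and WT2 were at or under the 3 counts taken as the limit of a library. Its counts were at most 0.0706% of those of *Chrng* in the same library. TPM listed *Chrne* at 0 in KO2 and WT2 and at 0.0598 to 0.128 in the other 4 libraries. A gene on the opposite strand, 4930544D05Rik, overlaps it, and the use of strand in the counting is not given in the sources used here, so even these few counts may not all belong to *Chrne*. The log2 ratio of *Chrng* to *Chrne* TPM, with 0.1 added to both, was 9.72, 9.57 and 9.18 in KO and 8.80, 9.57 and 8.87 in WT. A two-sided exact permutation of the 6 libraries gave p = 0.3, where 0.1 is the smallest p possible, so *Chrng* far exceeded *Chrne* in both and a shift between them was not detectable at these *Chrne* counts.

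The makeup of the subunit RNA overlapped between the genotypes as well. *Chrna1* took 41.6% to 48.2% of the summed TPM of the 5 subunit genes in KO and 43.5% to 50.9% in WT. The gamma gene *Chrng* took 31.9%, 25.6% and 26.2% in KO and 25.1%, 21.7% and 26.6% in WT (exact permutation test, p = 0.3). *Chrnb1* made up 14.3% to 16.5% in KO and 15.8% to 18.0% in WT, and *Chrnd* 9.13% to 12.8% and 11.5% to 13.2%. All 4 shares overlapped between genotypes.

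Of the clustering signal, *Agrn* (ENSMUSG00000041936, chr4:156165290-156197488) encodes the ligand agrin. Its CPM were 40.5, 45.25 and 64.0 in KO and 43.3, 33.3 and 46.5 in WT. KO3 was the highest library and the other 5 overlapped. The log2 fold change was 0.28 (95% confidence interval −0.19 to 0.76, adjusted p = 0.345). Counts per gene do not separate the neural from the muscle splice form.

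*Lrp4* (ENSMUSG00000027253, chr2:91457511-91513779, plus strand) encodes the agrin receptor, a large single-pass protein of the LDL receptor family that also restrains Wnt signalling. It had 347, 266 and 373 CPM in KO1 to KO3 and 140.0, 166 and 176 CPM in WT1 to WT3. All 3 KO libraries lay above all 3 WT libraries, for which the two-sided exact permutation p is 0.1, the floor of this design. Its mean was 329 ± 55.6 for KO and 161 ± 18.6 for WT (SD, n = 3). *Lrp4* rose by 1.03 on the log2 scale (standard error 0.17, edgeR's adjusted p = 0.00738), or 2.04-fold with a 95% confidence interval of 1.55 to 2.70.

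On the length-corrected scale *Lrp4* had 27.2, 22.04 and 36.5 TPM in KO and 12.2, 15.0 and 14.5 TPM in WT, a log2 difference of 0.97 (standard error 0.19, limma's adjusted p = 0.0118). The call on counts held in all 11 alternatives tried, with adjusted p from 1.05e-05 to 0.0497, the highest without WT1. The call on TPM was lost without WT1 (adjusted p = 0.0732) and with no filter on low values (adjusted p = 0.0628). The 8 tested genes nearest to *Lrp4*, 4 on each side, had log2 fold changes from −0.76 to 0.90 and none passed the threshold (adjusted p of 0.140 or more). The 57 other tested genes of the fixed 10 Mb stretch holding *Lrp4* (chr2, 90 to 100 Mb), which also holds *Rapsn* 412 kb away, had a median of 0.16.

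*Musk* (ENSMUSG00000057280, chr4:58285960-58374303), the kinase that LRP4 activates, had 134, 96.5 and 107 CPM in KO and 115, 128 and 132 CPM in WT. KO1 was the highest library and KO2 and KO3 the lowest. The log2 fold change was −0.15 (95% confidence interval −0.50 to 0.20, adjusted p = 0.486). *Lrp4* TPM divided by *Musk* TPM was 1.13, 1.19 and 1.501 in KO and 0.521, 0.564 and 0.586 in WT (exact permutation test, p = 0.1, the floor of this design). In TPM the receptor gene thus exceeded the kinase gene in every KO library and in 0 WT libraries. In CPM, without the length correction, *Lrp4* exceeded *Musk* in every library of both genotypes. The ratio holds the rise of *Lrp4* again and is not a second result.

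*Dok7* (ENSMUSG00000044716, chr5:35056766-35087839), the MuSK adaptor, had 44.1, 38.9 and 28.0 CPM in KO and 28.2, 41.2 and 38.4 CPM in WT. The ranges nearly coincided, with a log2 fold change of 0.04 (95% confidence interval −0.45 to 0.53, adjusted p = 0.901). *Rapsn* (ENSMUSG00000002104, chr2:91035620-91045729), which encodes the receptor scaffold rapsyn, had 96.8, 71.3 and 49.7 CPM in KO and 81.3, 65.0 and 74.7 CPM in WT. The WT libraries again lay inside the KO range, and the log2 fold change was −0.02 (95% confidence interval −0.56 to 0.51, adjusted p = 0.956). The antisense gene Gm13778 overlaps *Rapsn*, and reads of the pair may not have been separated.

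The intervals give the sizes of difference that the spread of all 6 libraries allows, and the fold changes moved when single libraries were left out. For *Chrna1*, *Chrnb1*, *Chrnd*, *Musk*, *Dok7*, *Rapsn* and *Agrn*, the 95% interval of the fold lay between 0.568 and 1.71 on both scales. For *Chrng* it reached 2.06 on counts.

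**Figure D2:**
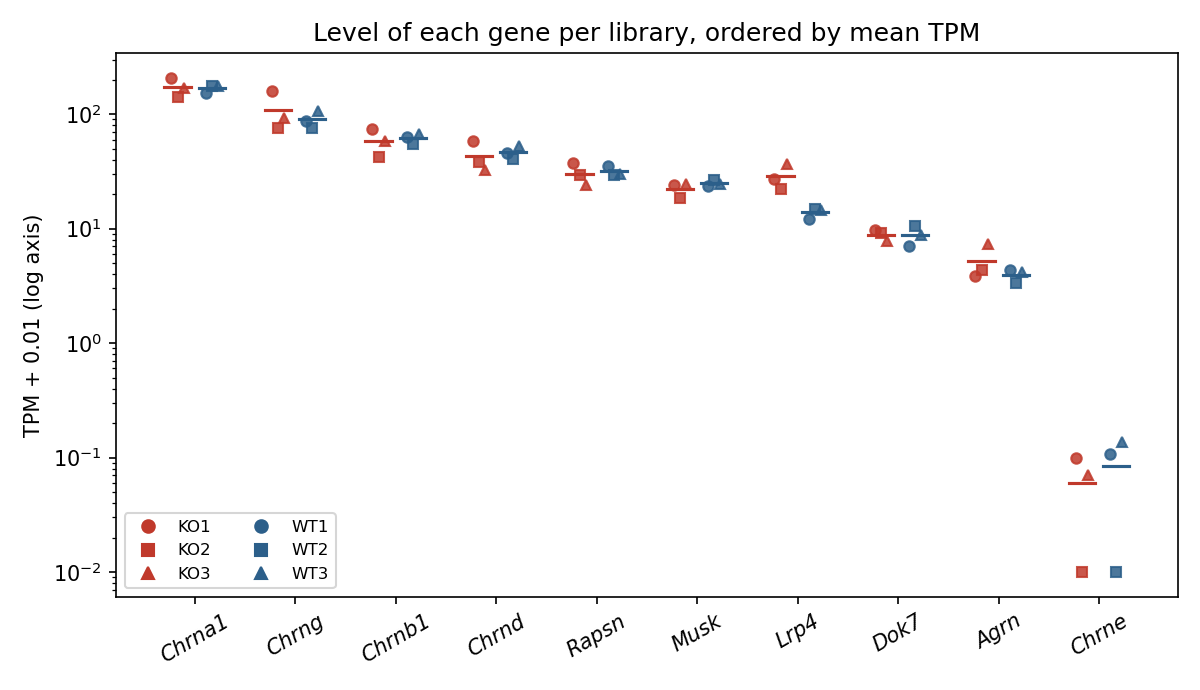
TPM of each gene in each library on a log axis, with 0.01 added so that values of 0 can be drawn. Bars are the means of KO (red) and WT (blue), n = 3 each. *Chrna1* was highest, *Chrne* lay at or under 0.128 TPM, and *Lrp4* is the gene whose KO and WT points separate.

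Per length, the order of the median TPM over the 6 libraries ran from *Chrna1* (172.5) through *Chrng* (90.3), *Chrnb1* (60.6), *Chrnd* (43.2), *Rapsn* (29.7), *Musk* (24.2), *Lrp4* (18.5), *Dok7* (9.003) and *Agrn* (4.24 TPM) to *Chrne* (0.0748). The ranges over libraries of *Chrna1* and *Chrng* overlapped, as did those of *Chrnb1* and *Chrnd*, *Chrnd* and *Rapsn*, *Rapsn* and *Musk*, *Musk* and *Lrp4*, and *Dok7* and *Agrn*. *Chrng* and *Chrnb1* did not overlap, with 75.7 TPM as the lowest *Chrng* value and 74.4 TPM as the highest *Chrnb1* value. *Lrp4* stayed above *Dok7*, with 12.2 TPM at its lowest against 10.5 TPM. Within genotypes *Lrp4* lay above *Musk* in every KO library and below it in every WT library. By median, the 4 highest were thus subunit genes and the lowest was the subunit gene *Chrne*, below the ligand gene *Agrn*.

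The 4 expressed subunit genes spread more widely among the KO libraries than among the WT libraries, with SDs of CPM of 303 against 118 for *Chrna1* and 215 against 84.3 for *Chrng*. Their log2 CPM, taken against the WT mean, had medians of 0.43, −0.24 and −0.22 from KO1 to KO3 and of −0.04, −0.24 and 0.26 from WT1 to WT3. The medians of the 16 myotube markers were 0.12, −1.09 and −1.12 in the KO libraries and 0.15, −0.32 and 0.17 in WT. The marker medians of KO2 and KO3 were thus more than 1 below the WT mean on the log2 scale, while single subunit genes in them lay between −0.75 (*Chrnd* in KO3) and −0.15 (*Chrng* in KO3). The myotube markers summed to 11780, 5237 and 5404 TPM in KO and 12660, 9115 and 11430 TPM in WT. Of the 16, 0 were higher and 2 were lower in KO at an adjusted p under 0.05, near the 10.6% lower among all tested genes: *Myl1*, a myosin light chain, and *Atp2a1*, the calcium pump of the sarcoplasmic reticulum. Leaving out any of KO2, KO3, WT1 and WT3 ended both calls (adjusted p of up to 0.102 and 0.136).

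The 12 markers of myoblasts and cycling cells had medians of −0.35, 0.92 and 0.73 in the KO libraries against −0.06, −0.10 and 0.16 in WT. Of these, 2 were higher (*Pax7* and *Id1*), 2 lower (*Myf5* and *Spry1*) and 8 not past the threshold in KO, against 12.1% higher and 10.6% lower among all tested genes. Each of these calls was lost without WT1, those of *Pax7*, *Myf5* and *Spry1* also without WT3, that of *Pax7* without KO2 and that of *Myf5* without KO3 or WT2, with adjusted p of up to 0.0826. In bulk RNA, fewer cells of a type and less RNA per cell cannot be told apart, and the part of these marker differences in the members' values was not tested. *Lrp4* deviated from the WT mean by 1.12 in KO1, where the median of the myotube markers was 0.12, and by 0.73 and 1.22 in KO2 and KO3, where that median was −1.09 and −1.12. In 5 of the 16 markers every KO library, KO1 included, lay below every WT library, as in 3201 of all 14828 tested genes.

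**Figure D3:**
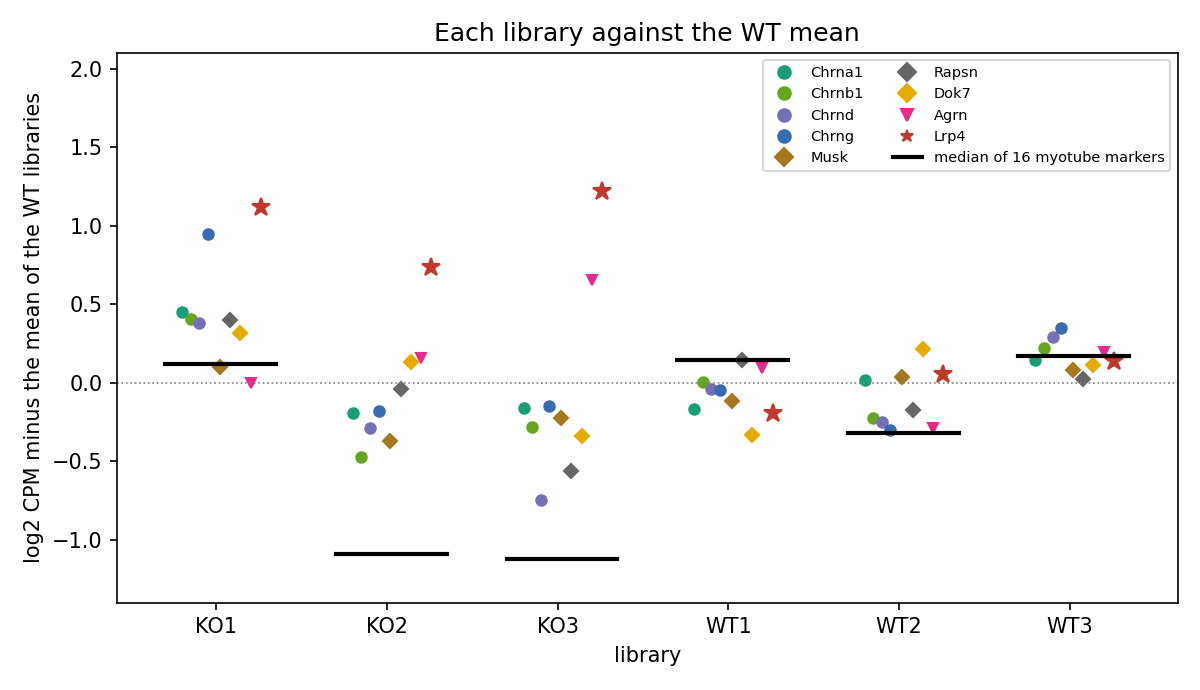
Log2 CPM of the 9 tested genes in each library minus the mean of the WT libraries, with the median of 16 myotube markers as a black bar. The subunit genes (circles) were highest in KO1, the marker bar dropped to −1.09 and −1.12 in KO2 and KO3, and *Lrp4* (star) was at least 0.73 in every KO library.

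The mean standardized profile of *Chrna1*, *Chrnb1*, *Chrnd* and *Chrng* over the 6 libraries was compared with other genes as a description, since all 6 points share depth and cell makeup across genes. Among 5242 candidates whose mean log2 CPM was 5 or more, the most alike were *Bcap31* (Pearson's r = 0.978), *Suox* (0.974), *Gpr155* (0.973), *Mrpl33* (0.967) and *Nabp1* (0.965). *Bcap31*, which encodes a chaperone of the endoplasmic reticulum, had 308, 172.5 and 179 CPM in KO and 198, 178 and 231 CPM in WT, the same order of KO1 above the rest. Of the other members, *Rapsn* (0.787) and *Musk* (0.786) followed the subunit profile more closely than *Dok7* (0.54), *Lrp4* (0.067) and *Agrn* (−0.309). Among the myotube markers *Acta1*, skeletal alpha actin, reached 0.931 and *Tnnt1*, slow troponin T, 0.901, while *Myl1* was at 0.486 and *Ttn*, titin, at 0.064.

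The labels name no cell type besides C2C12, and no nerve. Of 11 motor neuron markers, 5 (*Chat*, *Slc18a3*, *Slc5a7*, *Mnx1* and *Snap25*) had at most 3 counts in every library, so the genes that make and package acetylcholine were at the limit of detection. The 11 together summed to 4.86 to 12.8 TPM in KO and 2.89 to 6.30 TPM in WT. Of the 5 tested, 2 were higher and 2 lower in KO (22.7% of all tested genes were called). *Tubb3*, a neuronal beta tubulin, rose (log2 fold change 2.76, adjusted p = 0.00422 in edgeR) and *Isl1*, a LIM homeodomain factor with 16, 3 and 1 counts in KO and 150, 355 and 248 in WT, fell (−5.37, adjusted p = 0.00542). *Syn1* and *Syt1*, genes of synaptic vesicle proteins named after their values were seen, had log2 fold changes of 1.47 and −2.14 (adjusted p = 0.0304 and 0.0350), calls lost without KO3 or any 1 WT library and, for *Syt1*, without KO2, with adjusted p of up to 0.133. Schwann cell markers summed to 78.8 to 91.7 TPM in KO and 75.9 to 80.4 TPM in WT, nearly all of it *Pmp22* and *Erbb3*, whereas *Sox10* and *S100b* had at most 10 counts in any library. Of the 5 Schwann cell markers tested, 1 was higher in KO: *Mbp*, a myelin protein gene named after its value was seen, with 43, 30 and 27 counts in KO and 3, 8 and 13 in WT (log2 fold change 1.88, adjusted p = 0.0421), a call lost on leaving out any 1 library, with adjusted p of up to 0.139.

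The neuronal receptor subunits were scarcely present. Of 11 such genes, 2 passed the filter on low counts, and the other 9 included *Chrna7* and *Chrnb4* with 0 counts in every library. *Chrnb2* had 0.139 to 0.301 TPM in KO and 0.261 to 0.290 TPM in WT. On counts its log2 fold change was −0.73 (adjusted p = 0.124 in edgeR). In CPM every KO library lay below every WT library for *Chrnb2*, as in 3201 of all 14828 tested genes. *Chrna10*, named here after its value was seen, had 7, 3 and 7 counts in KO and 33, 9 and 22 in WT, with an adjusted p of 0.0459 that rose to at most 0.186 when KO2, KO3, WT1 or WT3 was left out.

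Genes that act around the members were described by lists taken with earlier results of these data known, and their counts of called genes stand beside 12.1% of all tested genes higher and 10.6% lower in KO, with a median of 0.03. Of 14 tested genes of the synaptic matrix and of acetylcholinesterase anchoring, 0 were higher and 4 were lower in KO. The median of the 14 was −0.50 on the log2 scale. *Ache*, which encodes the enzyme that ends transmission by cleaving acetylcholine, had 23, 31 and 19 counts in KO and 90, 111 and 197 counts in WT. It fell by 2.63 on the log2 scale (95% confidence interval −3.50 to −1.76, adjusted p = 0.00458). *Colq*, the collagen tail that anchors the enzyme, was named after its value was seen and had 16, 22 and 7 counts in KO and 44, 52 and 51 in WT. It fell by 1.91 (adjusted p = 0.0216), a call lost without WT1, WT2 or WT3 with adjusted p of up to 0.0771. *Lama2*, the laminin alpha 2 chain of the muscle basement membrane, fell by 2.21 from 305 ± 44.4 to 65.9 ± 21.7 CPM (SD, n = 3), and *Lamb2*, the laminin beta 2 chain concentrated at synapses, fell by 0.94. The calls of *Ache*, *Lama2* and *Lamb2* held in all 11 alternatives on counts, the only ones run for the genes of these lists.

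Of 18 tested genes of the postsynaptic scaffold and cytoskeleton, 0 were higher and 5 were lower, with a median of −0.09. *Dtna*, the alpha dystrobrevin that stabilizes receptor clusters, had 38.1, 57.5 and 55.8 CPM in KO and 224, 225 and 202 CPM in WT. It fell by 2.11 on the log2 scale (95% confidence interval −2.52 to −1.69, adjusted p = 0.000812). The ankyrin genes *Ank2* and *Ank3* fell by 1.87 and 1.15, calls lost without WT1 and, for *Ank2*, also without WT2, with adjusted p of up to 0.0606 and 0.0519. *Utrn*, which encodes the utrophin of the synaptic membrane, had a log2 fold change of −0.17 (adjusted p = 0.487).

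Among 20 genes that carry the MuSK signal inside the cell, 4 were higher and 2 were lower, with a median of −0.02. The Src family kinases went both ways: *Fyn* fell by 0.72 from 174 ± 17.8 to 105 ± 22.3 CPM (SD, n = 3), *Yes1* rose by 0.68 and *Src* by 0.62 (adjusted p = 0.0245, 0.00705 and 0.0268). *Cdk5r1*, the activator of a kinase that disperses receptor clusters, fell by 0.85 (adjusted p = 0.0257). All 4 calls were lost without WT1, with adjusted p of up to 0.123. Those of *Fyn*, *Src* and *Cdk5r1* were also lost without KO3 or WT3, those of *Fyn* and *Src* without KO2, and those of *Fyn* and *Cdk5r1* without WT2.

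Of 14 tested genes of neuregulin signalling and synaptic transcription, 2 were higher and 0 were lower, with a median of −0.04. *Egr1*, an immediate early factor, had 16.7, 45.3 and 43.8 CPM in KO and 13.7, 14.7 and 10.7 CPM in WT, a log2 fold change of 1.44 (adjusted p = 0.0266). *Gabpb2*, a subunit of the GABP factor that binds the N-box, had a log2 fold change of 1.20 (adjusted p = 0.0123), while *Gabpa*, the DNA-binding subunit, was at −0.23 (adjusted p = 0.247). Leaving out WT1 or WT3 ended both calls, and KO2, KO3 or WT2 that of *Egr1*, with adjusted p of up to 0.104.

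Among 17 tested genes that respond to muscle activity or denervation, 3 were higher and 4 were lower, with a median of −0.47. *Hdac9*, a class IIa histone deacetylase whose loss in muscle raises receptor gene expression, had 11, 17 and 9 counts in KO and 436, 248 and 432 counts in WT. It fell by 5.10 on the log2 scale (95% confidence interval −5.89 to −4.31, adjusted p = 0.000390) and held in all 11 alternatives on counts, as did *Nr4a1*, a nuclear receptor induced by activity, which fell by 2.59 (adjusted p = 0.01001). *Kcnn3*, the SK3 potassium channel of denervated muscle, had 134.5, 25.7 and 65.6 CPM in KO and 12.4, 12.1 and 10.5 CPM in WT, a log2 fold change of 2.69 (adjusted p = 0.0117). *Runx1*, a factor induced by denervation, had a log2 fold change of 1.13 (adjusted p = 0.0143). Both of these calls were lost without WT1 or WT3, with adjusted p of up to 0.0579 and 0.0728. *Myog*, which activates subunit genes through their E-boxes, had a log2 fold change of 0.06 (adjusted p = 0.863). The other myogenic bHLH genes of this list, named after their values were seen, went both ways: *Myod1* rose by 0.99 (adjusted p = 0.0141) and *Myf6*, with 15, 3 and 2 counts in KO, fell by 3.58 (adjusted p = 0.0162), and both calls were lost without WT1 or WT3, with adjusted p of up to 0.0789.

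Of 17 tested genes of receptor assembly, glycosylation and trafficking, 1 was higher and 4 were lower, with a median of −0.30. *Ly6e*, a small membrane protein of the Ly6 family, fell by 1.04 from 403 ± 60.6 to 197 ± 20.6 CPM (SD, n = 3, adjusted p = 0.00644). *Gfpt1*, the first enzyme of the hexosamine pathway, fell by 0.74 (adjusted p = 0.0111, or 0.0568 without WT1), and *Stx5a*, a syntaxin of the early secretory pathway, fell by 0.69 (adjusted p = 0.00947). *Vps35*, of the retromer complex, had a log2 fold change of 0.62 (adjusted p = 0.0324), a call lost without KO2 or any 1 WT library, with adjusted p of up to 0.130.

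**Figure D4:**
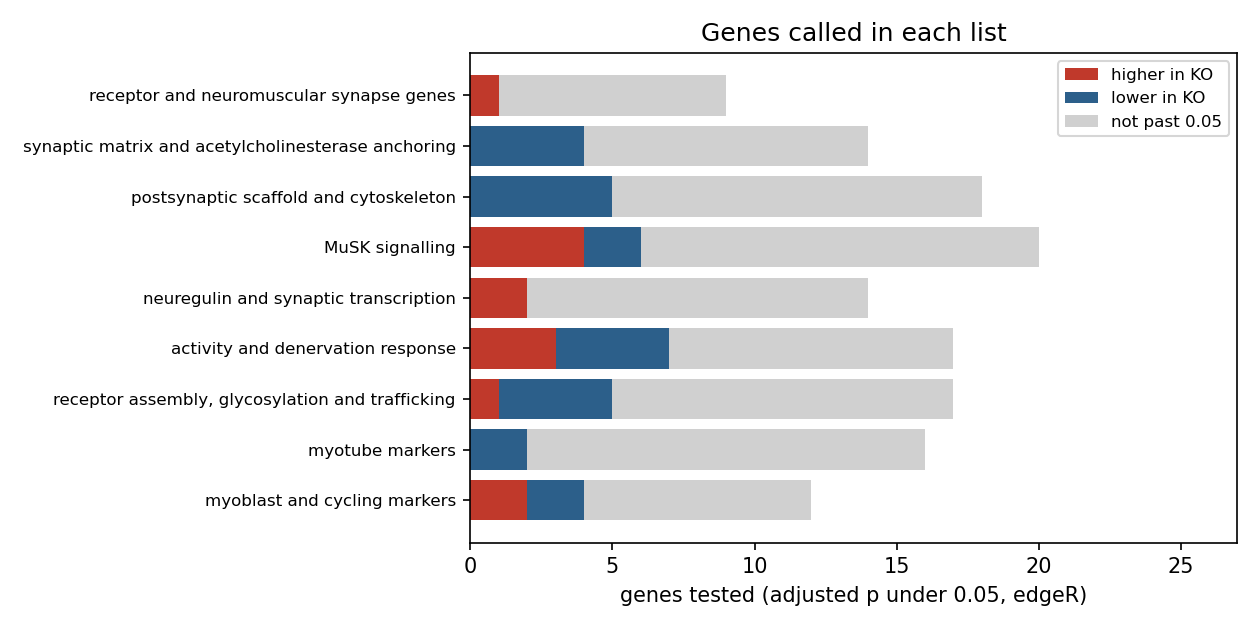
Number of tested genes in each list that were higher (red) or lower (blue) in KO at an adjusted p under 0.05 in edgeR, or not past it (grey). The receptor and neuromuscular synapse genes had 1 of 9 called, and the matrix and scaffold lists had 4 of 14 and 5 of 18, all of them lower, where 22.7% of all tested genes were called and 10.6% were lower.

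By position, the members were spread over chromosomes 1, 2, 4, 5 and 11. Chromosomes were cut into fixed 10 Mb stretches, so a member need not lie in the middle of its own. On chromosome 11, *Chrnb1* lies near the end of 60 to 70 Mb and *Chrne* near the start of 70 to 80 Mb. The other tested genes in the stretch holding each member had median log2 fold changes from −0.23 (*Chrne*, 165 genes) to 0.30 (*Dok7*, 121 genes). The tested members other than *Lrp4*, from −0.16 to 0.28, lay within that range. The stretch of *Chrnb1* had 7 of 142 genes called higher and 29 lower, and that of *Chrne* 9 of 165 higher and 42 lower. That of *Agrn* had 19 of 86 higher and 3 lower, and that of *Dok7* 25 of 121 higher and 3 lower. Among all tested genes 12.1% were higher and 10.6% lower. With all libraries in, *Agrn*, at 0.28, lay close to the median of 0.25 of its stretch, but without KO3 *Agrn* was at 0.068. *Chrnd*, at −0.16, and *Dok7*, at 0.04, lay below the 0.20 and 0.30 of theirs. *Lrp4*, at 1.03, lay well above the 0.16 of its own. The part of position in these values was not tested.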

How the data were processed

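Reads were aligned by the authors with STAR, and the deposited table holds the raw count of reads on each gene in the 6 libraries. The authors also deposited StringTie values per library: TPM were used here, with rows that share a gene identifier summed, while the deposited FPKM and coverage were not. All columns of counts were used (0 left unused). Tool versions, annotation and strand setting are not given in the sources used here. The submitters' processing notes name mm9 and the methods GRCm39, yet the deposited coordinates of all 10 members equal those of GENCODE M21 on GRCm38, as do 83.2% of 45137 shared genes.

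The members, gene lists, tests and alternatives were chosen with earlier results of these data known. Counts of 14828 genes that passed filterByExpr were tested by quasi-likelihood (two-sided) in edgeR 4.0.16 (TMM scaling, genotype alone, R 4.3.3), with Benjamini-Hochberg adjustment over those genes and a threshold of 0.05. CPM are relative to the counts in tested genes. TPM of at least 1 in 3 libraries (11691 genes) were tested with limma 3.58.1 on log2(TPM + 1), on which scale changes of low genes are understated. Single values were compared by exact permutation of 3 libraries against 3, which cannot go below p = 0.1. DESeq2 1.42.0 was an alternative. The steps were tested on simulated data.

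Named from each list were up to 4 genes past the threshold, by size of change, whose mean log2 CPM was 0 or more, and others where the text says so. Genes below the threshold were named for their role. Sequences came from RefSeq (GRCm38.p6). Splicing was not analysed here. Single list genes that the rule names may not be reported here.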

Additional observations from a re-analysis of the deposited data

How the results depend on the processing

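The rise of *Lrp4* kept its direction in all 11 alternatives on counts (log2 fold change 0.93 to 1.17) and all 9 on TPM (0.78 to 1.13), and its TPM call was lost in 2. The other 8 tested members passed the threshold in 0 alternatives. With library totals alone as the scaling, the median of all genes moved from 0.03 to 0.15, and *Chrnb1* and *Rapsn* turned to 0.027 and 0.084. Leaving out each library in turn, log2 fold changes on counts ranged from −0.19 to 0.17 for *Chrna1*, −0.39 to 0.095 for *Chrnb1*, −0.52 to 0.070 for *Chrnd*, −0.20 to 0.47 for *Chrng*, −0.11 to 0.21 for *Dok7* and −0.29 to 0.19 for *Rapsn*. On TPM they ranged from −0.12 to 0.17 for *Chrna1*, −0.31 to 0.096 for *Chrnb1*, −0.39 to 0.025 for *Chrnd*, −0.090 to 0.44 for *Chrng*, −0.12 to 0.14 for *Dok7* and −0.24 to 0.076 for *Rapsn*. Their signs thus rest on single libraries. *Musk* stayed negative and *Agrn* positive throughout, but their sizes also moved with single libraries. *Musk* ran from −0.30 (without KO1) to −0.053 (without KO2) on counts, and from −0.23 (without KO3) to −0.037 (without KO2) on TPM. *Agrn* ran from 0.068 (without KO3) to 0.41 (without KO1) on counts, and from 0.042 to 0.43 on TPM without the same libraries.

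The number of genes called among all tested moved more. On counts it ran from 933 without WT1 to 4712 without KO1 (460 to 2381 higher, 473 to 2331 lower), against 3361. On TPM it ran from 484 without WT1 to 3156 without KO1 (229 to 1544 higher, 255 to 1612 lower), with 0 to 1 members called, and with no filter it was 1075 (431 higher, 644 lower, 0 members), against 2394. The cause was not tested.

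Same-numbered KO and WT libraries did not deviate together (Pearson's r across genes 0.137, −0.116 and 0.00413 for numbers 1 to 3). Differently numbered libraries had r from −0.335 to 0.28. With 3 libraries per genotype these values cannot decide whether the numbers pair the libraries. With the number as a replicate block, 2520 genes were called on counts and *Lrp4* kept its call (log2 fold change 1.02, adjusted p = 0.0188 in edgeR). The log2 ratio of *Chrng* to *Chrne* differed between KO and WT by 0.25 to 0.65 over the alternatives (exact permutation p = 0.7 with a pseudocount of 1 and 0.2 on CPM, no p elsewhere). With *Chrne* at or near 0 the pseudocount sets much of it, and no direction is read from it. *Chrne*, *Ache* and *Colq* rest on few counts per library, as do *Isl1* and *Myf6*, whose folds are imprecise with KO2 and KO3 at 3 counts or fewer.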
